A study of Mus musculus with 9 samples.

Results

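The 37 aminoacyl-tRNA synthetase genes of the mouse were followed in neutrophils kept with PyMT-N cells, with PyMT-M cells or alone. They were the protein-coding genes, among 54532 Ensembl identifiers counted, whose GRCm38 symbol consists of a one-letter amino acid code followed by ars or ars2, together with Farsa, Farsb and Eprs; 17 symbols end in 2 and denote enzymes of mitochondria, and 20 denote cytosolic enzymes. All 37 had counts and all 37 passed the filter on low counts. The neutrophils were taken from the marrow of C57/B6 mice, wild type by label, and were cultured for 12 h in 0.5% fetal bovine serum (FBS). The sample titles name DMEM as the medium of both co-cultures and name no medium for the neutrophils cultured alone. A difference in medium, if there was one, could not be told apart from co-culture. There were 3 libraries of neutrophils sorted by flow cytometry from co-culture with PyMT-N cells, 3 of neutrophils sorted from co-culture with PyMT-M cells, and 3 of neutrophils cultured alone. The labels leave the letters N and M unexplained and mention no sort for the neutrophils cultured alone, so that sorting and co-culture cannot be told apart in either comparison with them. The replicates are labelled as biological, with no tie to separate animals, so p-values measure the spread between these libraries.

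Each synthetase except Eprs, which serves glutamate and proline, joins a single amino acid to its transfer RNAs (tRNAs). This step gives the ribosome its charged substrates and sets the meaning of each codon. The enzymes fall into class I and class II, which have unrelated catalytic folds. Cytosol and mitochondria are served mostly by separate nuclear genes, but Gars and Kars each make a form for both, and mitochondrial glutaminyl-tRNA is made by an amidotransferase (Qrsl1, Gatb and Gatc) instead of a synthetase of its own. In the mammalian cytosol Eprs, Iars, Lars, Mars, Qars, Rars, Kars and Dars sit together with the scaffold proteins Aimp1, Aimp2 and Eef1e1 in the multisynthetase complex. Neutrophils are short-lived cells that leave the bone marrow with much of their granule protein already made. Several cytosolic synthetase genes are known targets of ATF4, the transcription factor of the integrated stress response, and WARS is known in human cells as a gene induced by interferon.

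Library totals ran from 1641049 counts in alone 3 to 4524563 in PyMT-N 3, and levels below are CPM, counts scaled to library sizes corrected by TMM (normalised CPM). One normalised CPM stood for 1.33 to 5.24 counts, and a count of 0 allows up to 3 counts, or 0.573 to 2.26 normalised CPM, by counting error only. The shallowest library, alone 3, was the one in which members had no count at all, namely Ears2, Mars2 and Yars2. It also had the highest share of counts on the mitochondrial ribosomal RNA gene mt-Rnr2, 12.7%, against 2.65% to 11.1% in the other libraries. All 12 neutrophil marker genes had counts in each group, but their summed level was 15353 to 19217 normalised CPM with PyMT-N, 15606 to 20033 with PyMT-M and 32783 to 46346 alone.

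Cytosolic synthetase transcripts were more abundant after either co-culture. Their summed level was 2033, 2121 and 2236 normalised CPM in the PyMT-N libraries, 2594, 2675 and 2837 in the PyMT-M libraries and 776, 783 and 948 in the libraries of neutrophils alone. None of the 3 groups overlapped another in this sum. The 16 mitochondrial members other than Lars2 together made 175, 159 and 175 normalised CPM with PyMT-N, 267, 266 and 262 with PyMT-M and 122, 132 and 107 alone, again without overlap. In counts, the cytosolic sum rested on 1257 to 14013 reads a library and the mitochondrial sum without Lars2 on 142 to 1394. Of the 17 mitochondrial members 11 averaged under 10 normalised CPM over the 9 libraries, and 0 of the 20 cytosolic members did. These are bulk libraries, in which fewer cells of a type and less RNA per cell cannot be told apart.

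**Figure D1:**
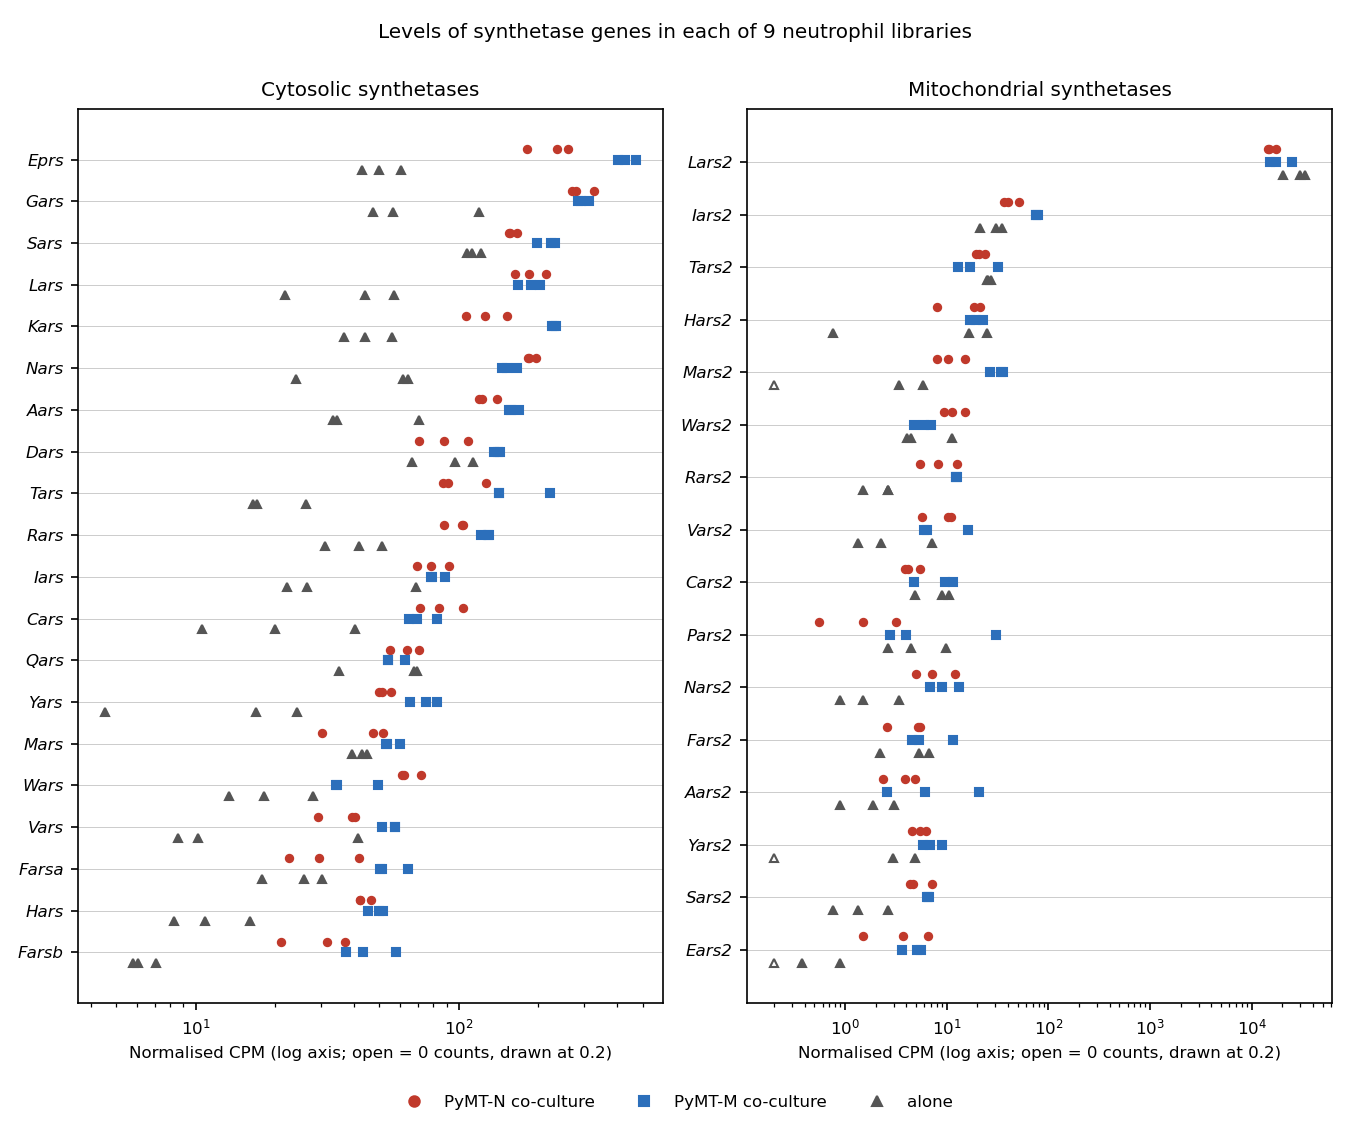
Normalised CPM (log axis) of the synthetase genes named in the plot in each of the 9 libraries, cytosolic genes left and mitochondrial genes right, with 3 points per group: PyMT-N co-culture (red circles), PyMT-M co-culture (blue squares) and alone (grey triangles), and open symbols for libraries with 0 counts. Most cytosolic genes have both co-cultures to the right of alone. For Qars, Mars, Dars, Farsa and Vars PyMT-N and alone overlap, and Lars2 stands far above every other mitochondrial member.

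Per kilobase of exon, which allows genes to be compared, glycyl-tRNA synthetase (Gars, chr6:55038007-55079500) was the highest cytosolic member in each group. It averaged 93.7 ± 9.68 normalised CPM per kb with PyMT-N, 94.7 ± 4.62 with PyMT-M and 23.9 ± 12.7 alone (SD, n = 3 each). With PyMT-N the next level was that of asparaginyl-tRNA synthetase (Nars, 43.2 ± 1.76), and Lars, Sars, Rars and Kars followed at 34.9, 31.1, 30.4 and 28.8, within each other's spread. With PyMT-M lysyl-tRNA synthetase (Kars) was next at 51.5 ± 0.952, ahead of Sars at 42.4 ± 3.52 and Rars at 39.4 ± 1.39. In neutrophils alone Gars, Sars (22.1 ± 1.30) and Dars (21.2 ± 5.44) did not differ beyond their spread. Eprs, the enzyme that charges both glutamate and proline tRNAs, stood at 12.5 ± 2.23 per kb with PyMT-N, 24.0 ± 1.99 with PyMT-M and 2.82 ± 0.483 alone.

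The first comparison asked how synthetase levels differ between neutrophils kept with PyMT-N cells and neutrophils kept alone. Of the 37 members 21 were higher with PyMT-N and 1, Lars2, was lower (edgeR quasi-likelihood test, Benjamini-Hochberg adjusted p under 0.05 over all 12012 genes tested), where 29.4% of all tested genes were called higher and 23.6% lower. By compartment 16 of 20 cytosolic members were called higher (80%). Of the 17 mitochondrial members 5 were called higher, a share equal to that of all genes tested. Among cytosolic members 0 were called lower by edgeR, 0 had an unadjusted p under 0.05 in that direction, and DESeq2 and limma-voom called 0. The median log2 fold change was 1.58 for cytosolic members and 0.86 for mitochondrial members, against 0.12 for all genes tested. The libraries of both groups did not overlap, with PyMT-N above, for 21 members and with PyMT-N below for 2, patterns held by 33.4% and 23.3% of all genes tested.

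Eprs (chr1:185363044-185428360) had the smallest p. It was at 182, 237 and 261 normalised CPM with PyMT-N and 49.9, 43.0 and 60.3 alone, and every PyMT-N library exceeded every alone library. The log2 fold change was 2.18 ± 0.21 (SE; edgeR adjusted p = 6.78e-07). The leucyl enzyme Lars followed, with 164, 185 and 214 normalised CPM with PyMT-N and 56.6, 44.1 and 21.9 alone. Its groups lay well apart, with a log2 fold change of 2.14 ± 0.26 (edgeR adjusted p = 6.33e-06). The threonyl enzyme Tars (chr15:11382301-11399665) was at 87.3, 90.9 and 127 normalised CPM with PyMT-N and 26.3, 17.2 and 16.6 alone. It had the largest log2 fold change of the cytosolic members here, 2.33 ± 0.30 (edgeR adjusted p = 1.20e-05). Gars was at 270.1, 327 and 280.2 normalised CPM with PyMT-N and 47.2, 56.4 and 119.9 alone, where the shallow library alone 3 was the highest of its group and still below all PyMT-N libraries. The difference was 2.03 ± 0.27 on the log2 scale (edgeR adjusted p = 1.59e-05). Nars, at 185, 183 and 197 normalised CPM with PyMT-N and 61.5, 63.9 and 24.1 alone, differed by 1.85 ± 0.26 (edgeR adjusted p = 2.46e-05), and there alone 3 was the lowest of its group.

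The other cytosolic members called higher with PyMT-N were Farsb, Hars, Wars, Cars, Yars, Aars, Kars, Rars, Iars, Vars and Sars, with log2 fold changes between 0.48 (Sars) and 2.22 (Farsb). The span of Aars overlaps that of the protein-coding gene Exosc6 over 1326 bases on the same strand, where strand could not separate their reads. Iars shares 1656 aligned bases at 96.0% identity with the pseudogene Gm4849. The part of such reads in the counts of Aars and Iars was not tested. The 4 cytosolic members without a call were Farsa, Qars, Mars and Dars. The methionyl enzyme Mars, one of the 2 members with the largest p, was at 51.7, 30.3 and 47.1 normalised CPM with PyMT-N and 42.8, 44.8 and 39.2 alone, and the groups overlapped (0.02 ± 0.25, edgeR adjusted p = 0.965). The other was the mitochondrial histidyl enzyme Hars2, at 18.4, 7.99 and 21.1 normalised CPM with PyMT-N and 16.5, 24.7 and 0.754 alone. In Hars2 a single library, alone 3, was almost without reads (0.01 ± 0.51, edgeR adjusted p = 0.992); the span of Hars2 overlaps that of Hars over 198 bases on the opposite strand, and the sources used here do not give the strand setting of the counting. Of the 22 calls 15 held without any one library. Calls were lost, with these adjusted p-values from edgeR, for Iars without alone 1 or alone 2 (0.0514 to 0.0517), Sars without PyMT-N 1, PyMT-N 2, PyMT-N 3 or alone 1 (0.0544 to 0.0756) and Vars without PyMT-M 1, PyMT-M 2, PyMT-M 3, PyMT-N 1, PyMT-N 2, PyMT-N 3, alone 1 or alone 2 (0.0533 to 0.24) among cytosolic members. Among mitochondrial members they were lost for Ears2 without PyMT-N 2 or alone 2 (0.0768 to 0.0993), Mars2 without PyMT-N 1 or alone 2 (0.0809 to 0.0889), Nars2 without PyMT-N 1 or alone 1 (0.0833 to 0.109) and Sars2 without PyMT-N 1, alone 1 or alone 3 (0.0883 to 0.13). The log2 fold change of Vars was 0.65 without alone 2 and 1.96 without alone 3, and that of Cars was 2.41 without alone 2. Vars was called although its groups overlapped, with PyMT-N at 29.2 to 40.5 normalised CPM and alone 3 at 41.5.

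The second comparison set neutrophils kept with PyMT-M cells against the same alone libraries. Of the 37 members 26 were higher with PyMT-M and 1, again Lars2, was lower by the same edgeR test, where 28.2% of all genes tested were called higher and 27.9% lower. By compartment 18 of 20 cytosolic and 8 of 17 mitochondrial members rose. No cytosolic member was called lower (0 by edgeR, 0 at an unadjusted p under 0.05, 0 by DESeq2 and 0 by limma-voom). The median log2 fold change was 1.67 for cytosolic and 1.30 for mitochondrial members, against -0.03 for all genes tested. For 27 members all PyMT-M libraries lay above all alone libraries, a pattern held by 31.4% of all genes tested, and for 0 members below them (26.5%). Both comparisons with alone use the same 3 control libraries, so their values are given side by side and not counted as independent.

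Eprs was at 402, 427 and 473 normalised CPM with PyMT-M and 49.9, 43.0 and 60.3 alone. That is a log2 fold change of 3.11 ± 0.21 (edgeR adjusted p = 4.98e-08), the largest among cytosolic members. Kars (chr8:111993443-112011323), which serves cytosol and mitochondria, was at 226, 234 and 229.7 normalised CPM with PyMT-M and 44.1, 36.6 and 55.8 alone, and its PyMT-M libraries were nearly equal. It differed by 2.37 ± 0.22 (edgeR adjusted p = 9.11e-07), next to 1.53 ± 0.22 for PyMT-N against alone (edgeR adjusted p = 3.77e-05). Tars was at 142, 142 and 222 normalised CPM with PyMT-M and 26.3, 17.2 and 16.6 alone, with PyMT-M 3 the highest of its group. Its log2 fold change was 3.05 ± 0.29 (edgeR adjusted p = 1.26e-06). Lars, at 203, 189 and 168 normalised CPM with PyMT-M and 56.6, 44.1 and 21.9 alone, differed by 2.14 ± 0.26 (edgeR adjusted p = 8.42e-06). Gars, the other member that serves both compartments, was at 284, 291 and 312 normalised CPM with PyMT-M and 47.2, 56.4 and 119.9 alone, a difference of 2.05 ± 0.27 (edgeR adjusted p = 1.77e-05).

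Qars and Mars were the cytosolic members without a call here. The glutaminyl enzyme Qars was at 54.0, 54.0 and 62.6 normalised CPM with PyMT-M and 35.2, 67.6 and 69.4 alone, with PyMT-M inside the range of alone (-0.00, SE 0.26, edgeR adjusted p = 1.00). The mitochondrial tryptophanyl enzyme Wars2 was at 6.02, 7.06 and 4.79 normalised CPM with PyMT-M and 4.46, 4.11 and 11.3 alone, again overlapping (0.04 ± 0.49, edgeR adjusted p = 0.951). The aspartyl enzyme Dars was called higher at 136, 144 and 142 normalised CPM with PyMT-M and 97.1, 66.5 and 113 alone, by 0.63 ± 0.23 (edgeR adjusted p = 0.0286); with PyMT-N it was at 70.6, 109 and 87.6 and was not called. Of the 27 calls 20 held without any one library. Among those lost, with their edgeR adjusted p-values, were Aars2 without PyMT-M 2, alone 1 or alone 2 (0.0753 to 0.176), Dars without PyMT-M 1, PyMT-M 2, PyMT-M 3 or alone 2 (0.0566 to 0.151), Ears2 without alone 2 (0.0524), Lars2 without PyMT-M 1, PyMT-M 2, alone 1 or alone 2 (0.0697 to 0.127), Sars2 without alone 1 (0.0559) and Wars without alone 2 (0.0604). The alanyl mitochondrial enzyme Aars2 was highest in PyMT-M 2, at 2.58, 20.8 and 6.12 normalised CPM with PyMT-M and 0.891, 1.87 and 3.02 alone, and its log2 fold change was 2.51 with that library and 1.23 without it. The log2 fold change of Vars was 1.68 with all libraries and 2.56 without alone 3, and that of Cars 1.50 and 2.15 without alone 2.

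**Figure D2:**
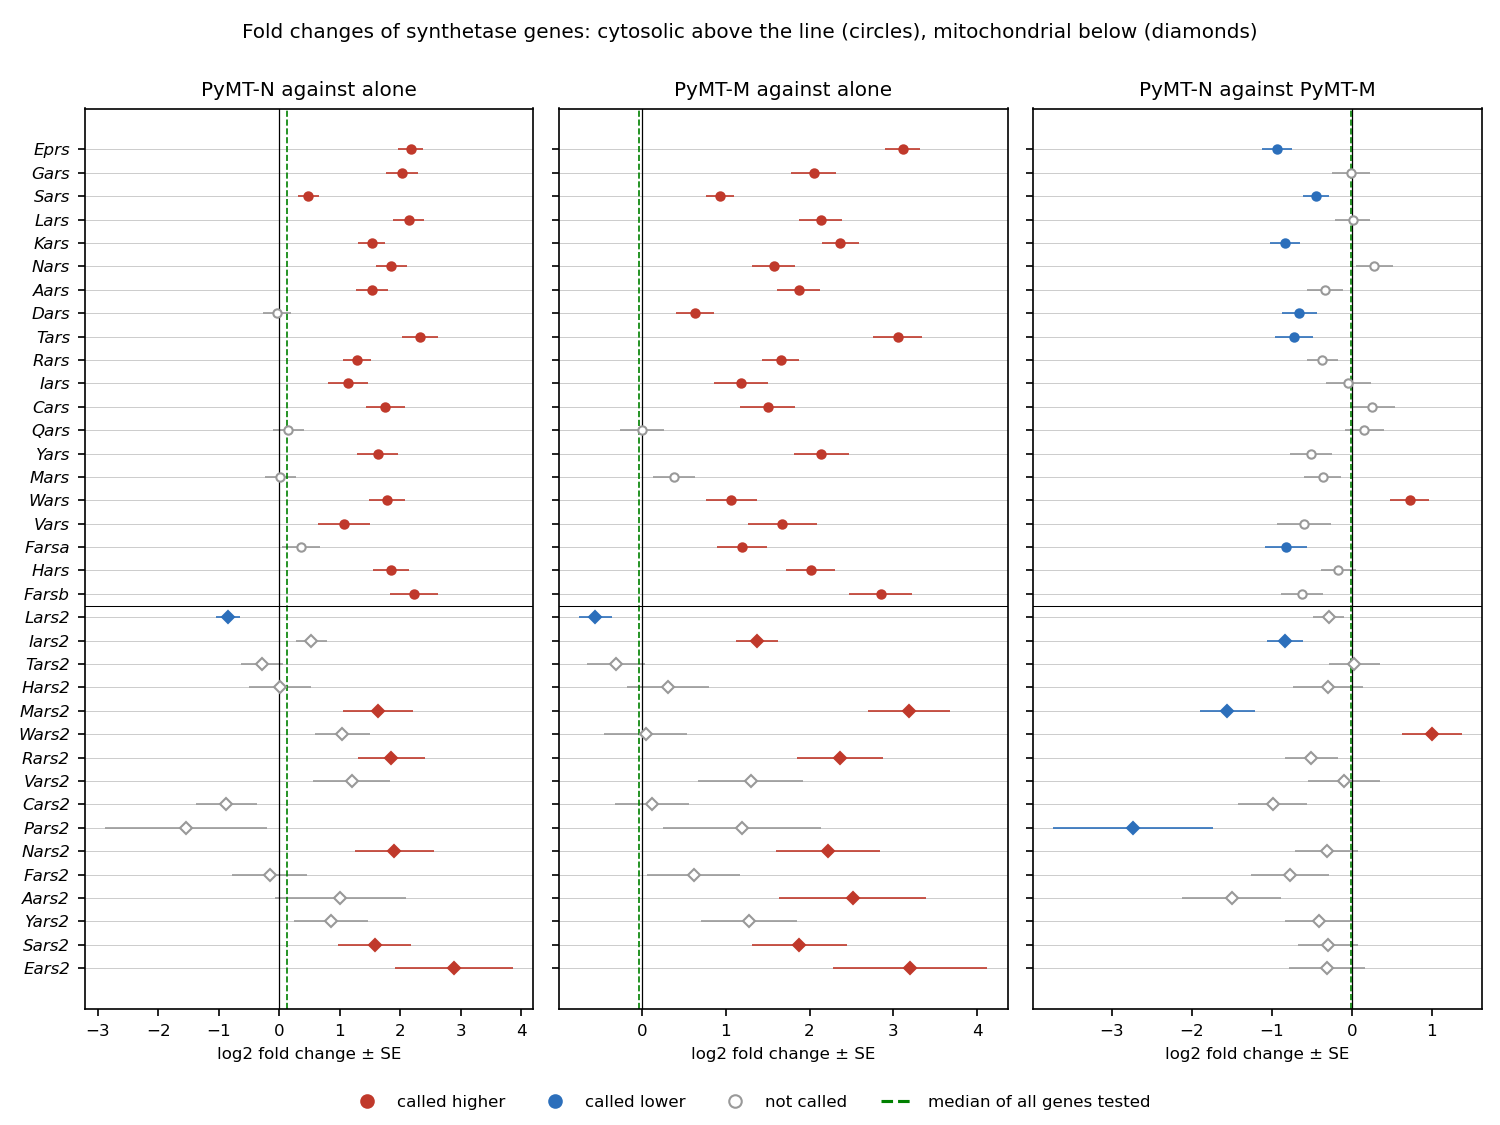
Log2 fold change with its SE (horizontal bars) of the synthetase genes named in the plot in the 3 comparisons, cytosolic genes as circles above the line and mitochondrial genes as diamonds below, with red for genes called higher, blue for genes called lower, open grey for genes without a call, and a dashed line at the median of all genes tested. Against alone, 16 of 20 cytosolic genes are called higher with PyMT-N and 18 of 20 with PyMT-M, and Lars2 is the only gene called lower, a direction that turns with pan-leukocyte scaling; between the co-cultures 9 genes are lower and 2 higher with PyMT-N.

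Set directly against each other, the co-cultures differed in fewer members. With PyMT-N 9 of 37 members were lower than with PyMT-M and 2 were higher (edgeR, same test), where 15.5% of all genes tested were called lower and 19.1% higher. Eprs, Kars, Tars, Dars, Farsa and Sars were the cytosolic members called lower and Mars2, Iars2 and Pars2 the mitochondrial ones; Wars and Wars2 were called higher. The median log2 fold change was -0.37 for cytosolic and -0.41 for mitochondrial members, against -0.02 for all genes tested, and 30 of 37 members had a negative value. All PyMT-N libraries lay below all PyMT-M libraries for 15 members and above them for 3, patterns held by 25.5% and 27.3% of all genes tested.

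Eprs was lower with PyMT-N, at 182, 237 and 261 normalised CPM against 402, 427 and 473 with PyMT-M, a log2 fold change of -0.94 ± 0.18 (edgeR adjusted p = 0.000878). Mars2, the mitochondrial methionyl enzyme, was at 15.2, 10.2 and 7.96 normalised CPM with PyMT-N and 34.4, 26.7 and 35.9 with PyMT-M; alone it was at 5.79, 3.36 and 0. The PyMT-N libraries lay between the other groups, and the difference from PyMT-M was -1.56 ± 0.34 (edgeR adjusted p = 0.00223). Kars was at 107, 126 and 153 normalised CPM with PyMT-N and 226, 234 and 229.7 with PyMT-M (-0.84 ± 0.19, edgeR adjusted p = 0.00318). The mitochondrial isoleucyl enzyme Iars2 was at 39.6, 36.4 and 51.9 normalised CPM with PyMT-N and 78.3, 75.0 and 76.1 with PyMT-M (-0.83 ± 0.22, edgeR adjusted p = 0.00889). Its annotated span overlaps that of Rab3gap2 over 2034 bases on the opposite strand, and without strand the reads of both cannot be told apart. The members with the largest p were Lars (0.01 ± 0.22, edgeR adjusted p = 0.982) and Gars (-0.02 ± 0.24, edgeR adjusted p = 0.968), both called higher than alone with either cell type.

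Only Eprs, Kars, Iars2 and Mars2 kept their call between the co-cultures whichever library was left out. The others lost it, with these edgeR adjusted p-values: Dars without PyMT-M 1, PyMT-M 2, PyMT-M 3, PyMT-N 1 or PyMT-N 3 (0.0654 to 0.129), Farsa without PyMT-M 1, PyMT-M 3, PyMT-N 2 or PyMT-N 3 (0.0504 to 0.141), Tars without PyMT-M 3, PyMT-N 1 or PyMT-N 2 (0.103 to 0.161) and Sars without PyMT-M 1, PyMT-M 2, PyMT-M 3, PyMT-N 1, PyMT-N 2, PyMT-N 3, alone 1 or alone 2 (0.0533 to 0.134). The calls of Wars and Wars2 as higher were lost too: Wars without PyMT-M 2, PyMT-M 3, PyMT-N 1, PyMT-N 2 or PyMT-N 3 (0.0692 to 0.129) and Wars2 without PyMT-M 1, PyMT-M 2, PyMT-M 3, PyMT-N 1, PyMT-N 2, PyMT-N 3, alone 1 or alone 2 (0.0533 to 0.213). Pars2 rested on 1 library: it was at 3.16, 0.551 and 1.51 normalised CPM with PyMT-N and 2.79, 4.01 and 30.6 with PyMT-M, where PyMT-M 3 held 115 of 149 counts, and without that library its log2 fold change was -0.99 in place of -2.73. Its call was lost for Pars2 without PyMT-M 3, PyMT-N 1, PyMT-N 2, PyMT-N 3, alone 2 or alone 3 (0.0528 to 0.31). Without PyMT-M 3 the difference of Tars was -0.48 in place of -0.72.

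Tryptophanyl-tRNA synthetase was the one amino acid whose cytosolic and mitochondrial enzymes both ran higher with PyMT-N than with PyMT-M. Wars (chr12:108860030-108894174) was at 61.7, 72.2 and 60.9 normalised CPM with PyMT-N, 49.2, 34.4 and 34.1 with PyMT-M and 18.3, 13.5 and 27.9 alone. All PyMT-N libraries were above all PyMT-M libraries, which were above all alone libraries. Against alone the log2 fold change was 1.79 ± 0.30 with PyMT-N (edgeR adjusted p = 0.000148) and 1.07 ± 0.31 with PyMT-M (edgeR adjusted p = 0.00841), and between the co-cultures it was 0.72 ± 0.25 (edgeR adjusted p = 0.0332). Wars2 was at 9.47, 11.3 and 15.1 normalised CPM with PyMT-N and 6.02, 7.06 and 4.79 with PyMT-M, a difference of 1.00 ± 0.37 (edgeR adjusted p = 0.0499). Neither was called with RLE, upper quartile, library-total or pan-leukocyte scaling, without the filter, by DESeq2 or with legacy edgeR estimation, where the adjusted p was 0.0542 to 0.409 for Wars and 0.0689 to 0.286 for Wars2. Wars overlaps Wdr25 over 544 bases on the opposite strand. Of 7 interferon-induced reference genes, 7 were higher with PyMT-N than alone and 6 with PyMT-M than alone, and 7 were higher with PyMT-N than with PyMT-M. In the same order, 29.4%, 28.2% and 19.1% of all genes tested were called higher. A link between these genes and the levels of Wars or Wars2 was not tested. Irf1, a transcription factor induced by interferon gamma, was at 264, 209 and 237 normalised CPM with PyMT-N, 77.8, 92.6 and 75.9 with PyMT-M and 79.8, 75.1 and 96.5 alone. It rose with PyMT-N against alone by 1.51 ± 0.20 (edgeR adjusted p = 1.34e-05), and its value with PyMT-M against alone was -0.01 ± 0.20 (edgeR adjusted p = 0.968). The antiviral gene Rsad2 had 5501 ± 351 normalised CPM with PyMT-N, 1848 ± 192 with PyMT-M and 46.0 ± 24.9 alone (SD, n = 3 each).

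Phenylalanyl-tRNA synthetase of the cytosol is built from the products of Farsa and Farsb in equal number. Farsa (chr8:84856989-84869257) was at 41.9, 29.5 and 22.6 normalised CPM with PyMT-N, 51.2, 50.4 and 63.9 with PyMT-M and 17.8, 25.8 and 30.2 alone, so that PyMT-N overlapped alone and PyMT-M did not. It differed from alone by 0.36 ± 0.32 with PyMT-N (edgeR adjusted p = 0.348) and by 1.19 ± 0.30 with PyMT-M (edgeR adjusted p = 0.00357). Farsb (chr1:78417975-78488897) was at 37.0, 21.2 and 31.6 normalised CPM with PyMT-N, 37.2, 57.8 and 43.1 with PyMT-M and 5.79, 7.10 and 6.03 alone. Its log2 fold change against alone was 2.22 ± 0.40 with PyMT-N (edgeR adjusted p = 0.000255) and 2.85 ± 0.38 with PyMT-M (edgeR adjusted p = 2.04e-05). Per kb of exon, Farsa and Farsb stood at 6.90 ± 2.16 and 11.4 ± 3.07 with PyMT-N, at 12.2 ± 1.67 and 17.6 ± 4.06 with PyMT-M, and at 5.42 ± 1.38 and 2.41 ± 0.265 alone. Farsa was thus the higher subunit transcript alone and the lower one in both co-cultures, on a scale that depends on the annotated exon length. The difference between the subunits' changes was not tested. The annotated span of Farsb overlaps that of Sgpp2 over 2315 bases on the opposite strand.

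Cytosolic members were also counted by whether they belong to the multisynthetase complex. Of the 12 cytosolic members outside it, 11 rose with PyMT-N (median log2 fold change 1.77) and 12 with PyMT-M (1.77). Of the 8 subunits, 5 rose with PyMT-N (1.21) and 6 with PyMT-M (1.42), and Qars and Mars were among those not called in either comparison. No test of the difference between these sets was made. By class, 7 of 9 class I cytosolic members rose with PyMT-N and 7 with PyMT-M, and 8 of 10 class II members rose with PyMT-N and 10 with PyMT-M. Of all genes tested, 29.4% were called higher with PyMT-N and 28.2% with PyMT-M. Their median log2 fold changes were 0.12 and -0.03.

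The complex's scaffold genes were also counted. Eef1e1, which anchors Mars in the complex, was at 10.3, 21.8 and 15.5 normalised CPM with PyMT-N, 11.6, 11.3 and 9.05 with PyMT-M and 0, 1.87 and 2.26 alone. It rose by 3.59 ± 0.64 with PyMT-N (edgeR adjusted p = 0.000179) and by 3.03 ± 0.68 with PyMT-M (edgeR adjusted p = 0.00126). Aimp2, the central scaffold, rose by 1.53 ± 0.53 with PyMT-N (edgeR adjusted p = 0.0232) and by 1.85 ± 0.50 with PyMT-M (edgeR adjusted p = 0.00566). Aimp1, which holds Rars, had 34.6 ± 2.56 normalised CPM with PyMT-N, 61.0 ± 12.9 with PyMT-M and 26.7 ± 7.31 alone. It was called higher with PyMT-M (1.22 ± 0.28, edgeR adjusted p = 0.00191) and was at 0.40 ± 0.29 with PyMT-N (edgeR adjusted p = 0.262).

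Among mitochondrial members, Ears2, Mars2, Nars2, Rars2 and Sars2 rose with PyMT-N, and these rose with PyMT-M too, where Iars2 and Aars2 were also called. The arginyl enzyme Rars2 kept both calls without any one library, at 5.45, 12.7 and 8.18 normalised CPM with PyMT-N, 12.7, 12.4 and 12.2 with PyMT-M and 2.67, 2.62 and 1.51 alone. It rose by 1.86 ± 0.55 with PyMT-N (edgeR adjusted p = 0.00993) and by 2.36 ± 0.51 with PyMT-M (edgeR adjusted p = 0.00114). The methionyl enzyme Mars2 rose by 1.64 ± 0.57 with PyMT-N (edgeR adjusted p = 0.0254) and by 3.19 ± 0.49 with PyMT-M (edgeR adjusted p = 6.87e-05); without alone 1 these were 2.28 and 3.84. The glutamyl enzyme Ears2 had 3 counts over the alone libraries, and its level was 7.79 times as high with PyMT-N (95% exact counting interval 2.50 to 39.2) and 9.76 times as high with PyMT-M (3.19 to 48.6). Iars2 rose with PyMT-M by 1.37 ± 0.25 (edgeR adjusted p = 0.000329) and was at 0.53 ± 0.26 with PyMT-N (edgeR adjusted p = 0.098). The threonyl, cysteinyl and phenylalanyl enzymes Tars2, Cars2 and Fars2 were not called in any comparison, with log2 fold changes against alone between -0.87 (Cars2, PyMT-N) and 0.62 (Fars2, PyMT-M). Tars2, the deepest of them, was at 23.5, 19.6 and 20.7 normalised CPM with PyMT-N, 32.2, 16.8 and 12.8 with PyMT-M and 27.2, 24.7 and 25.6 alone.

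The amidotransferase genes that replace a mitochondrial glutaminyl enzyme, Qrsl1, Gatb and Gatc, were not called against alone in either co-culture. Qrsl1 averaged 9.51 ± 1.10 normalised CPM with PyMT-N, 10.5 ± 2.78 with PyMT-M and 6.64 ± 6.08 alone, Gatb averaged 4.40 ± 2.15, 3.46 ± 0.540 and 3.05 ± 2.17 in that order, and Gatc 4.75 ± 0.546, 8.59 ± 1.17 and 8.48 ± 1.58 (SD, n = 3 each). Of 15 mitochondrial translation factors tested 6 rose with PyMT-N and 7 with PyMT-M (median log2 fold change 0.61 and 0.96). These are 40% and 46.7% of the list, against 29.4% and 28.2% of all genes tested. The elongation factor Gfm1 rose by 2.12 ± 0.31 with PyMT-N (edgeR adjusted p = 4.17e-05) and by 3.12 ± 0.30 with PyMT-M (edgeR adjusted p = 1.22e-06), and Tufm, which carries charged tRNA to the mitochondrial ribosome, by 1.46 ± 0.30 (edgeR adjusted p = 0.000865) and 1.89 ± 0.29 (edgeR adjusted p = 8.56e-05). Of 13 mitochondrial tRNA maturation genes 4 rose and 1, Mto1, fell with PyMT-N, and 6 rose with PyMT-M. The 30.8% called higher with PyMT-N is near the 29.4% of all genes tested, and with PyMT-M the share was 46.2%, against 28.2% of all genes.

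The mitochondrial leucyl enzyme Lars2 (chr9:123366927-123462666, forward strand) stood above all other members in level and was the member called lower in both co-cultures. It was at 17233, 14871 and 14601 normalised CPM with PyMT-N, 17113, 15205 and 24672 with PyMT-M and 29772, 33702 and 20341 alone, taking 1.50% to 2.84% of all counts and ranking between 2 and 4 among all genes of each library. The PyMT-N libraries lay below all alone libraries, and PyMT-M 3 lay within them. Per kb of exon it averaged 1404 ± 131 with PyMT-N, 1713 ± 452 with PyMT-M and 2519 ± 619 alone, next to 4.80 ± 0.921, 8.61 ± 0.185 and 3.25 ± 0.787 for Iars2. It was called lower with PyMT-N (-0.84 ± 0.20, edgeR adjusted p = 0.00211) and with PyMT-M (-0.56 ± 0.19, edgeR adjusted p = 0.0242). With pan-leukocyte scaling the direction turned, to 0.23 with PyMT-N (edgeR adjusted p = 0.474) and 1.02 with PyMT-M (edgeR adjusted p = 0.00564). With PyMT-M the call was also lost with RLE, upper quartile and library-total scaling, by DESeq2 and with only the compared groups in the fit (adjusted p 0.0515 to 0.809), and without PyMT-M 1, PyMT-M 2, alone 1 or alone 2 (0.0697 to 0.127).

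The 3′ untranslated region of Lars2 (chr9:123461676-123462664, 989 bases) is known to hold sequence that resembles ribosomal RNA, and in GENCODE transcripts a stretch of it recurs in the non-coding gene Gm15564 on chromosome 16. The shared stretch spans 72 aligned bases with 1 mismatch (chr9:123462048-123462119), and the longest identical run is 52 bases. A stretch of 30 bases from within that run is shown because both genes carry it.
Lars2, chr9:123462059-123462088, GRCm38, forward strand: gcgttggattgttcacccactaatagggaa
Gm15564 was at 436, 297 and 311 normalised CPM with PyMT-N, 434, 395 and 1042 with PyMT-M and 1087, 1449 and 1769 alone. All alone libraries lay above all libraries of both co-cultures, and PyMT-M 3 was the highest of its group, as it was for Lars2. The mitochondrial ribosomal RNA mt-Rnr2 was at 40828, 25631 and 26303 normalised CPM with PyMT-N, 62342, 50284 and 96187 with PyMT-M and 88833, 70313 and 156744 alone. The annotated ribosomal RNA CT010467.1 was at 1982, 2024 and 1530.3 normalised CPM with PyMT-N, 1169, 1560.2 and 1688 with PyMT-M and 2678, 3258 and 11970.5 alone, with alone 3 far above the rest. The part of ribosomal RNA reads in the counts of Lars2 was not tested. Without Lars2, 0 of 16 mitochondrial members were called lower with PyMT-N or PyMT-M by edgeR, and 0 by DESeq2 or limma-voom; 0 had an unadjusted p under 0.05 in that direction.

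**Figure D3:**
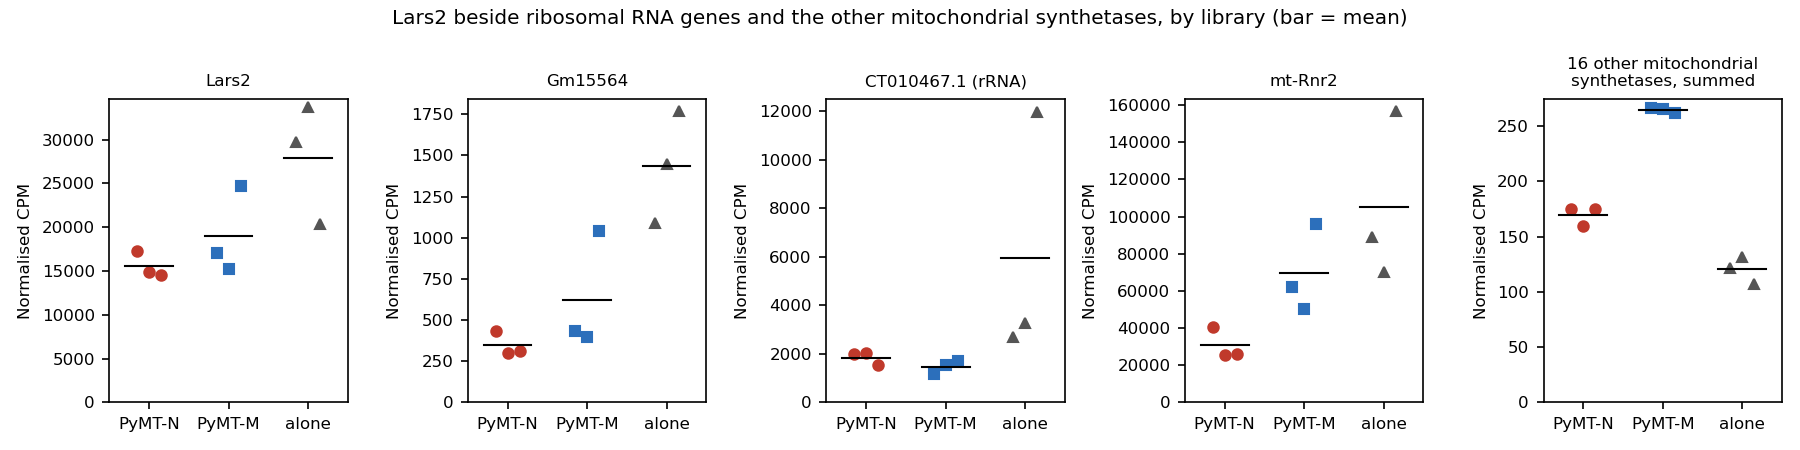
Normalised CPM by library (3 points per group, bar at the mean) of Lars2, the non-coding gene Gm15564 that shares part of its 3′ untranslated region, the ribosomal RNA genes CT010467.1 and mt-Rnr2, and the summed level of the 16 other mitochondrial synthetases. Lars2, Gm15564 and mt-Rnr2 average lowest with PyMT-N and highest alone, and the other mitochondrial synthetases are lowest alone; the direction of Lars2 turns with pan-leukocyte scaling.

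Promoter windows, from 250 bases before to 50 bases after the annotated start, were read for 27 of the 37 members from RefSeq (build GRCm38.p6); those not matched include Cars, Hars, Hars2, Lars, Nars, Pars2, Rars, Vars and Wars. Motifs were searched by letters on both strands, and a match describes letters, not binding. The core of the C/EBP-ATF response element, TGATGNAAN, to which ATF4 binds with C/EBP partners, occurred in 5 of 13 cytosolic genes (38.5%) and in 0 of 14 mitochondrial ones, next to 1215 of 27025 genes (4.5%) in the whole table. A match in each of these genes is shown in capitals within its surrounding 30 bases, because all 5 rose in both co-cultures. Most cytosolic members did so, with or without the motif: 16 of 20 were called higher with PyMT-N and 18 of 20 with PyMT-M. A link between the motif and the rise was not tested.
Aars at chr8:111033840-111033869, forward strand: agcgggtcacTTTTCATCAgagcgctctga
Gars at chr6:55037960-55037989, forward strand: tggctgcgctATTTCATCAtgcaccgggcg
Iars at chr13:49682126-49682155, forward strand: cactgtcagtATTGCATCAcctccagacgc
Tars at chr15:11399655-11399684, reverse strand: caggagtcccGTTGCATCAgctggttagct
Yars at chr4:129189896-129189925, forward strand: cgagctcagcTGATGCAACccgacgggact
Counted from the RefSeq start, the matches shown begin at base 9 in Aars, at -31 in Gars, at 7 in Iars, at -16 in Tars and at 4 in Yars. Aars, Gars, Iars and Tars hold the reverse complement of the motif in reading direction. The E-box CACGTG, the binding motif of MYC and related factors, was found in Aars, Farsb, Iars and Tars, 4 of 13 cytosolic genes (30.8%), and in Ears2 among 14 mitochondrial genes, next to 8.09% of all genes in the table. The interferon-stimulated response element core was found in Qars alone among the 27 members with a window (3.7%), near the 3.99% of all genes. The NRF1 motif was found in none of these 27 (1.07% of all genes). Of the members called in all 3 comparisons, Eprs, Kars, Sars and Mars2 held neither the response element core nor the E-box in their windows. Tars held both, and Wars had no window.

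Genes of the integrated stress response and of amino acid supply were counted in the same libraries. Of 25 integrated stress response genes tested 17 rose and 4 fell with PyMT-N, and 11 rose and 5 fell with PyMT-M; between the co-cultures 13 were higher and 6 lower with PyMT-N (median log2 fold change 1.82, 0.32 and 0.60). The shares called higher were 68% with PyMT-N and 44% with PyMT-M, against 29.4% and 28.2% of all genes tested, and the shares called lower, 16% and 20%, were below the 23.6% and 27.9% of all genes. Between the co-cultures 52% of the list was higher and 24% lower, against 19.1% and 15.5% of all genes. Atf4 was at 484, 413 and 462 normalised CPM with PyMT-N, 488, 527 and 629.5 with PyMT-M and 351, 376 and 230.0 alone, and rose by 0.50 ± 0.19 with PyMT-N (edgeR adjusted p = 0.0393) and 0.77 ± 0.19 with PyMT-M (edgeR adjusted p = 0.00318). Asparagine synthetase Asns, a classical ATF4 target, was at 113, 120.1 and 149 normalised CPM with PyMT-N, 195, 203 and 184 with PyMT-M and 20.5, 20.2 and 9.81 alone. It rose by 2.84 ± 0.26 with PyMT-N (edgeR adjusted p = 3.71e-07) and by 3.45 ± 0.26 with PyMT-M (edgeR adjusted p = 1.14e-07). The serine pathway genes Psat1 and Shmt2 rose by 5.03 ± 0.32 and 2.99 ± 0.25 with PyMT-N and by 6.07 ± 0.31 and 3.89 ± 0.25 with PyMT-M (edgeR adjusted p at most 1.85e-07). Between the co-cultures Asns, Psat1 and Shmt2 were lower with PyMT-N (-0.61 ± 0.20, -1.04 ± 0.20 and -0.90 ± 0.20, edgeR adjusted p at most 0.0279). They are among the 6 genes of the list called lower there, while 13 were called higher. The pseudokinase Trib3 rose by 2.47 ± 0.42 with PyMT-N (edgeR adjusted p = 0.000166) and by 2.55 ± 0.42 with PyMT-M (edgeR adjusted p = 0.000123).

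Not all stress response genes moved this way. Ddit3, which encodes the factor CHOP, fell by 1.73 ± 0.30 with PyMT-N (edgeR adjusted p = 0.000225) and by 1.27 ± 0.29 with PyMT-M (edgeR adjusted p = 0.00176); its annotated span overlaps that of Mars over 68 bases on the opposite strand. Eif2ak3, the kinase PERK of the endoplasmic reticulum, fell by 1.94 ± 0.27 with PyMT-N (edgeR adjusted p = 3.11e-05) and by 0.96 ± 0.26 with PyMT-M (edgeR adjusted p = 0.00523), and the interferon-induced kinase Eif2ak2 rose by 3.19 ± 0.28 and 2.29 ± 0.28 (edgeR adjusted p at most 9.96e-06). Among 15 amino acid transporters 6 rose and 6 fell with PyMT-N, and 6 rose and 5 fell with PyMT-M. With PyMT-N 40% of the list was higher and 40% lower, against 29.4% and 23.6% of all genes tested. With PyMT-M 40% was higher, against 28.2% of all genes, and the 33.3% lower is near the 27.9% of all genes. The leucine carrier Slc7a5 was at 54.0, 67.2 and 56.6 normalised CPM with PyMT-N, 206, 190.1 and 217 with PyMT-M and 5.79, 12.0 and 0.754 alone, with log2 fold changes against alone of 3.04 ± 0.37 (edgeR adjusted p = 7.14e-06) and 4.82 ± 0.35 (edgeR adjusted p = 8.37e-08). The arginine carrier Slc7a1 rose by 2.49 ± 0.27 and 2.77 ± 0.27, and the neutral amino acid carrier Slc38a2 fell by 1.00 ± 0.20 and 0.84 ± 0.20 (edgeR adjusted p at most 0.00261). The cystine carrier Slc7a11 was at 1291, 1119 and 1181 normalised CPM with PyMT-N, 546, 589 and 390.0 with PyMT-M and 2657, 3004 and 1244 alone.

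**Figure D4:**
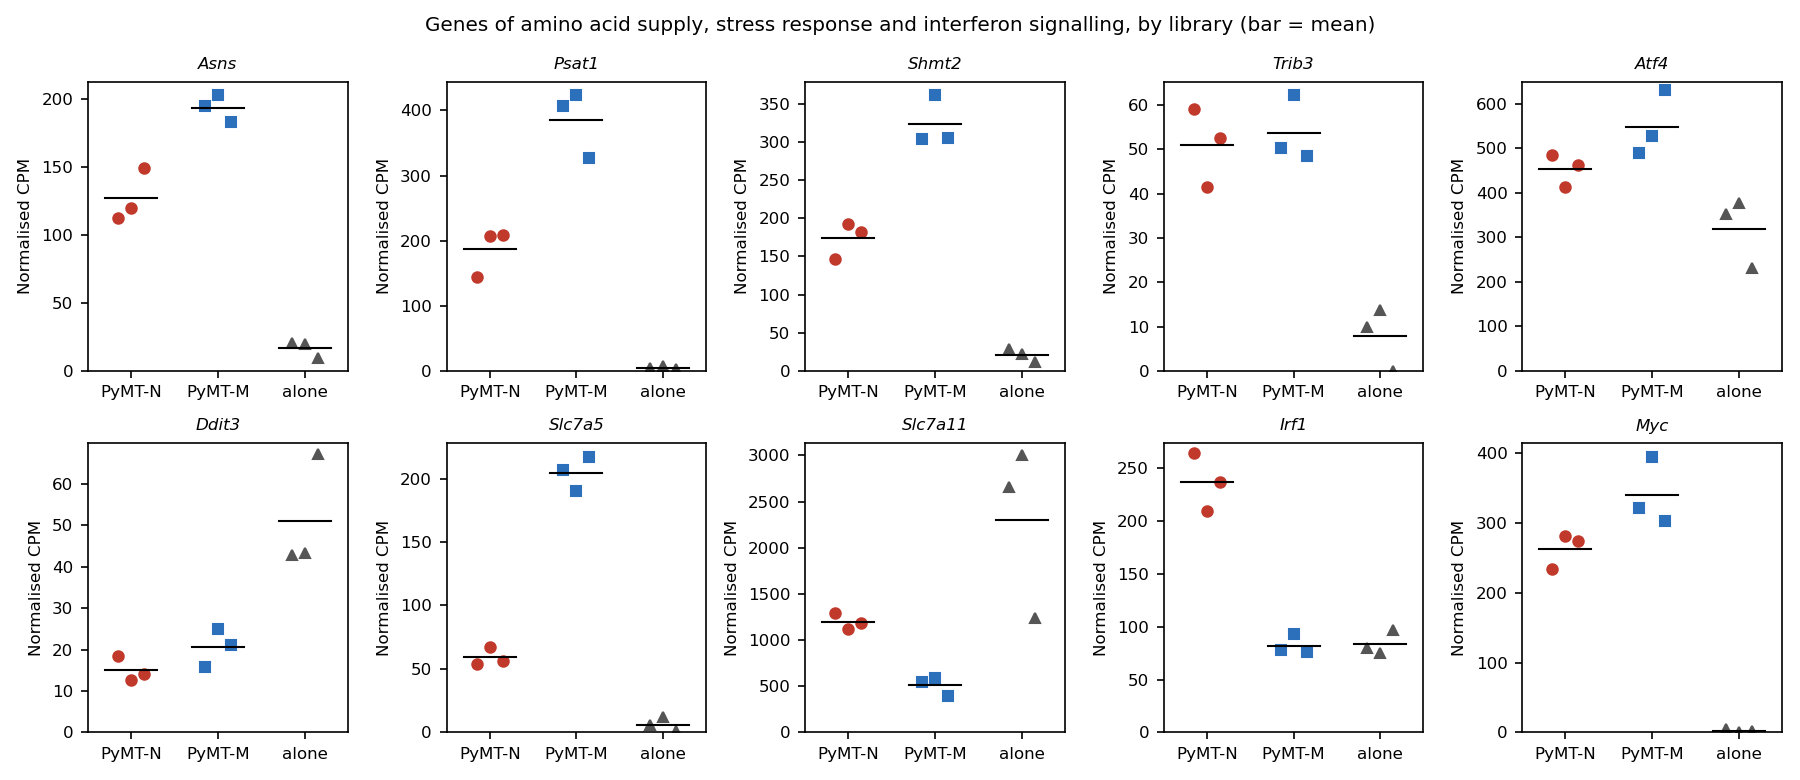
Normalised CPM by library (3 points per group, bar at the mean) of 10 genes named beside the synthetases. Asns, Psat1, Shmt2, Trib3, Slc7a5 and Myc are lower alone than in both co-cultures, Ddit3 and Slc7a11 are highest alone on average, and Irf1 lies at 209 to 264 with PyMT-N and at 75.1 to 96.5 in the other groups.

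Steps on either side of tRNA charging were counted too. Of 17 cytosolic tRNA maturation genes 8 rose with PyMT-N and 11 with PyMT-M (median log2 fold change 1.22 and 1.67), among them the tRNA methyltransferase Nsun2, by 1.83 ± 0.30 with PyMT-N (edgeR adjusted p = 0.000133) and 2.63 ± 0.30 with PyMT-M (edgeR adjusted p = 4.73e-06). Of 10 elongation and termination genes 6 rose and 3 fell with PyMT-N, and 6 rose and 1 fell with PyMT-M. The shares called higher were 47.1% and 64.7% for tRNA maturation and 60% and 60% for elongation and termination, with PyMT-N and with PyMT-M, against 29.4% and 28.2% of all genes tested. The 30% of elongation and termination genes called lower with PyMT-N is near the 23.6% of all genes, and with PyMT-M it was 10%, against 27.9%. Eif5a, which helps ribosomes past proline runs, rose by 1.63 ± 0.20 with PyMT-N (edgeR adjusted p = 5.95e-06) and 2.22 ± 0.20 with PyMT-M (edgeR adjusted p = 6.02e-07), and the translocation factor Eef2 fell by 0.78 ± 0.14 (edgeR adjusted p = 0.000236) and 0.56 ± 0.14 (edgeR adjusted p = 0.00286). Among synthetase-like genes outside the naming rule, Prorsd1 fell with PyMT-N (-1.59 ± 0.48, edgeR adjusted p = 0.012), and 4 of 9 rose with PyMT-M. Tarsl2, a close relative of Tars, had 1.44, 3.58 and 2.58 normalised CPM with PyMT-N, 1.72, 6.30 and 6.39 with PyMT-M and 0, 1.12 and 0 alone. On 3 counts over the alone libraries it was 5.31 times as high with PyMT-N (95% exact counting interval 1.65 to 27.2) and 9.92 times as high with PyMT-M (3.25 to 49.3). Myc, a transcription factor of growth programmes that binds E-boxes, was at 234, 281 and 274 normalised CPM with PyMT-N, 321, 395 and 303 with PyMT-M and 4.90, 1.12 and 1.51 alone. It rose by 6.66 ± 0.34 with PyMT-N (edgeR adjusted p = 7.69e-10) and by 7.03 ± 0.34 with PyMT-M (edgeR adjusted p = 1.36e-09).

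Markers of other cells moved with the groups. The 14 epithelial markers summed to 2261 to 3044 normalised CPM with PyMT-N, 64.3 to 92.1 with PyMT-M and 5.28 to 21.7 alone; 13 of 13 tested were called higher with PyMT-N than alone, and 3 higher and 1 lower with PyMT-M than alone. Krt5 was at 0 in all libraries, Cldn4 and Esrp1 in PyMT-M and alone libraries, Cldn3 with PyMT-M, Krt14 in both of those groups, and Epcam and Krt19 alone. The 14 mesenchymal markers summed to 1532 to 1884 normalised CPM with PyMT-N, 1222 to 1270 with PyMT-M and 216 to 267 alone; Col1a2, Col3a1 and Tagln were at 0 with PyMT-N, Thy1 with PyMT-M, and Col1a2 and Twist1 alone. Of the 11 mesenchymal markers tested 6 rose and 2 fell with PyMT-N, and 8 rose and 2 fell with PyMT-M. The 7 B cell markers, of which 7 fell with PyMT-N and 6 with PyMT-M, summed to 16.9 to 17.4 normalised CPM with PyMT-N, 79.3 to 126.0 with PyMT-M and 560.4 to 1290.5 alone. Monocyte and macrophage markers summed to 767 to 977, 469 to 702 and 979 to 1402 normalised CPM with PyMT-N, with PyMT-M and alone, dendritic cell markers to 5.23 to 6.31, 10.6 to 12.0 and 153 to 339, and eosinophil and basophil markers to 17.1 to 18.9, 7.95 to 9.35 and 329 to 449. T and NK cell markers summed to at most 3.12 and erythroid markers to at most 0.191 in any library, and endothelial and platelet markers to 13.2 to 27.0, 3.65 to 9.32 and 0.754 to 35.1. Synthetases are used by every cell, so transcripts of the co-cultured cells would count among the members; the part of these cells in the members' differences was not tested.

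**Figure D5:**
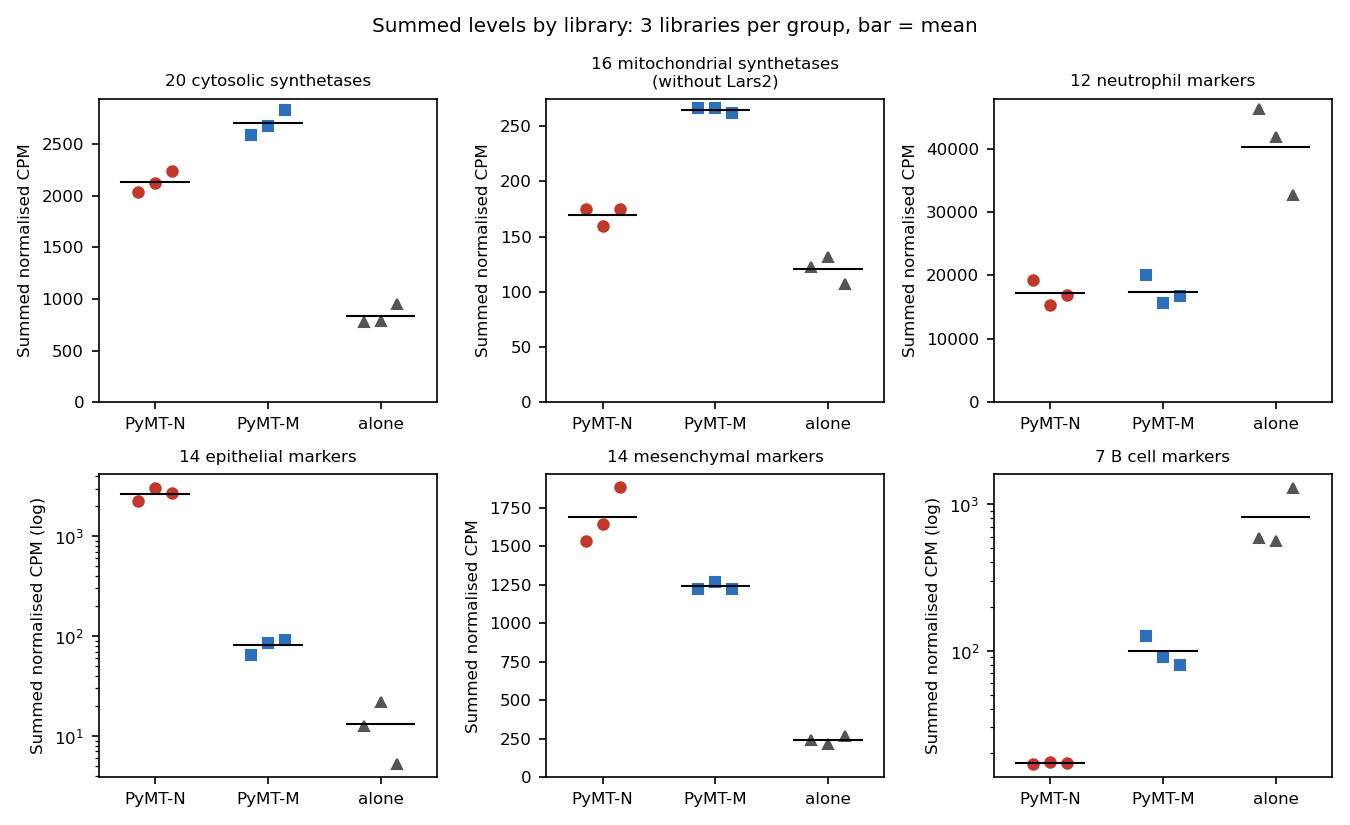
Summed normalised CPM by library (3 points per group, bar at the mean) of the 20 cytosolic synthetases, the 16 mitochondrial synthetases without Lars2, and neutrophil, epithelial, mesenchymal and B cell markers; epithelial and B cell panels have log axes. Both synthetase sums are lowest alone and highest with PyMT-M, neutrophil and B cell markers are highest alone, and epithelial markers are highest with PyMT-N.

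The level of the members also depends on what each library is scaled to. Scaled to 25 pan-leukocyte genes, whose median log2 fold change against alone was -1.31 with PyMT-N and -1.70 with PyMT-M on the TMM scale over the 24 tested, the median of all genes shifted by 1.08 with PyMT-N and 1.49 with PyMT-M. Then 30 members were higher with PyMT-N and 37 with PyMT-M, with 56.9% and 64.3% of all genes called higher and 7.25% and 2.15% lower, and 19 members were lower and 0 higher with PyMT-N than with PyMT-M, with 29.1% and 11.7% of all genes. Scaled to library totals, which moved the median of all genes by 0.29 and 0.47, the members called higher were 23 and 29, with 35.9% and 38.1% of all genes called higher and 17.6% and 15.9% lower, and between the co-cultures 16 were lower and 0 higher, with 22.5% and 15.3% of all genes. Relative to the median of all genes, cytosolic members were higher by 1.46 to 1.47 with PyMT-N and by 1.70 to 1.76 with PyMT-M over the 5 scalings tried. Mitochondrial members were higher by 0.72 to 0.75 with PyMT-N and by 1.33 to 1.38 with PyMT-M. A scaling moves all genes of a library together, so values relative to the median hardly change by construction. Their narrow ranges are therefore no test of the scaling.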

How the data were processed

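Total RNA (150 pg per library, RNeasy Micro) went into QIAseq FX Single Cell libraries, per the labels' protocols. Reads were aligned with STAR to GRCm38 (mm10), per the submitters' processing notes; the sources used here give no counting tool, strand setting or annotation. The deposited table holds raw read counts per Ensembl gene. Rows without a gene name held 0.0032% to 0.0140% of a library's counts and were not removed before the fit. Of the 12012 genes tested, 12010 had a name. The synthetase genes and all gene lists were chosen with earlier results of these data known.

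Genes were kept by edgeR's filterByExpr (at least 10 counts in a group's worth of libraries, 15 in total; 12012 genes) and scaled by TMM. One quasi-likelihood model (edgeR 4.0.16, limma 3.58.1, R 4.3.3) was fitted to all 9 libraries, and p-values were adjusted over all genes tested. The model was run on simulated counts in which few genes changed, up or down at random. Such counts cannot check the scaling of these libraries, where many genes differed between groups. Log2 fold changes are PyMT-N or PyMT-M over alone, and PyMT-N over PyMT-M. Alternatives were other scalings, filters, thresholds and designs, DESeq2 1.42.0, limma-voom, a replicate block and leaving out each library.

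Per-library values are given by rule for the 5 members with the smallest and the 2 with the largest p of each comparison and for Wars, Gars, Kars, Farsa and Farsb. Lars2, Pars2, Aars2, Wars2, Dars, Rars2, Tars2, Vars and Cars were singled out after their values were seen. Coordinates are those of GRCm38. Some single-gene values and a sequence are not reported here.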

Additional observations from a re-analysis of the deposited data

Results flagged for a closer look

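The 2 co-cultures differed from each other, by the test of the difference itself, in 11 members. The log2 fold change of PyMT-N over PyMT-M was -2.73 for Pars2, -1.56 for Mars2, -0.94 for Eprs, -0.84 for Kars, -0.83 for Iars2, -0.83 for Farsa, -0.72 for Tars, -0.66 for Dars and -0.45 for Sars, and it was 0.72 for Wars and 1.00 for Wars2 (edgeR adjusted p 0.000878 to 0.0499). Of these, Eprs, Kars, Iars2 and Mars2 stayed past the threshold without any one library.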

How the results depend on the processing

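Of 999 single-gene values recomputed without one library, 912 kept their direction and side of the threshold, 77 lost the call, 10 gained one and 0 reversed; under the other settings 1197 of 1296 kept both, 36 lost it, 58 gained it and 5 reversed. For 76 of all 2295 the sign differed while neither value was past the threshold. All 5 reversals came with pan-leukocyte scaling, where the log2 fold change was 1.09 for Dars and 0.23 for Lars2 with PyMT-N, and 1.02 for Lars2, 1.54 for Qars and 1.18 for Tars2 with PyMT-M; the construction of that scaling moves all genes up.

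With PyMT-N against alone, the cytosolic median log2 fold change was 1.87 with library totals, 2.66 with pan-leukocyte scaling and 1.70 with limma-voom. The mitochondrial median was 1.92 with pan-leukocyte scaling, 0.22 with at least 50 counts in 3 libraries, which leaves fewer genes, and 0.56 with only the compared groups. Members called lower numbered 0 with pan-leukocyte scaling and 0 at a minimum absolute log2 change of 1.

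With PyMT-M against alone, the cytosolic median was 1.76 with RLE, 1.76 with upper quartile, 2.17 with library totals, 3.22 with pan-leukocyte scaling, 1.75 without a filter, 1.85 with limma-voom and 1.77 with only the compared groups. The mitochondrial median was 1.80 with library totals, 2.80 with pan-leukocyte scaling and 0.80 with at least 50 counts. Members called lower numbered 0 with RLE, upper quartile, library totals, pan-leukocyte scaling, DESeq2, only the compared groups, adjusted p under 0.01 and a minimum absolute log2 change of 1.

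With PyMT-N against PyMT-M, the cytosolic median was -0.46 with upper quartile, -0.58 with library totals and -0.83 with pan-leukocyte scaling, and the mitochondrial median was -0.85 with pan-leukocyte scaling. Members called lower numbered 16 with library totals, 19 with pan-leukocyte scaling, 14 with limma-voom, 4 at adjusted p under 0.01 and 2 at a minimum absolute log2 change of 1. Members called higher numbered 0 with RLE, upper quartile, library totals, pan-leukocyte scaling, no filter, DESeq2, legacy edgeR estimation (chosen after seeing the data), adjusted p under 0.01 and a minimum absolute log2 change of 1, and 1 with at least 50 counts, without robust moderation and with the replicate block. The cause of these changes was not tested except where named.

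Without one library, members called higher numbered 16 to 21 with PyMT-N, 22 to 26 with PyMT-M and 0 to 2 between the co-cultures, and members called lower 1 to 1, 0 to 1 and 5 to 12. The cytosolic medians ran from 1.46 to 1.69, 1.65 to 1.82 and -0.43 to -0.30, and the mitochondrial medians from 0.74 to 1.01, 1.23 to 1.51 and -0.73 to -0.38, in the same order. Libraries with the same replicate number also share a number in their deposited names across the groups, and the labels do not explain it. Correlations of same-numbered deviations ran from -0.078 to 0.029. With 3 libraries per group these correlations cannot show whether the libraries were paired by design. Mitochondrial members are limited by depth, with 11 of 17 under 10 normalised CPM.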
